A study of Mus musculus with 6 samples.

Results

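The 9 enzymes described here carry methionine through its cycle and on to cysteine: Mat1a, Mat2a and Mat2b, Gnmt, Ahcy, Bhmt and Mtr, Cbs and Cth. They are the 9 genes whose symbols were listed for this pathway, which the methionine- and choline-deficient (MCD) diet of the study limits, among 41388 genes in each count file and 40481 with a symbol. All 9 were among the 17287 genes that passed the filter on low counts. The rule itself uses no measured value.

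Liver RNA was read in 3 control and 3 *Mttp-IKO* pools of male mice on the C57BL/6 background. Both groups carried floxed Mttp alleles with Villin Cre ERT2 (Mttp f/f Villin Cre ERT2), were 12 to 16 weeks old, and ate the MCD diet for 3 weeks before liver was taken after a fast of 4 h. The *Mttp-IKO* mice had received tamoxifen for 5 days and the controls, littermates that the labels call wild type, had received vehicle, and both started the diet 3 weeks after the injections. Each pool joined RNA of 3 to 4 mice, so n = 3 counts pools and not mice, and the spread between pools is not that between mice. Villin drives Cre in the gut epithelium and not in hepatocytes, so Mttp, the triglyceride transfer protein needed to build chylomicrons and VLDL, is not deleted in the cells that make most of this RNA. Liver Mttp read 90.4, 186 and 175 CPM (reads on the gene relative to all reads on genes in the pool) in the control pools and 145, 129 and 161 CPM in the *Mttp-IKO* pools, which overlap, and a liver level checks nothing about a deletion in the gut. Tamoxifen was given to the *Mttp-IKO* mice alone, and its own effect cannot be told apart from that of the deletion.

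Methionine adenosyltransferases join methionine to ATP to make S-adenosylmethionine (SAM), the methyl donor of the cell. Methyltransferases such as Gnmt use SAM and leave S-adenosylhomocysteine, which Ahcy splits into homocysteine and adenosine. Homocysteine is either methylated back to methionine, by Bhmt with betaine made from choline or by Mtr with a methyl group from folate and cobalamin, or is joined to serine by Cbs and cleaved by Cth to give cysteine for glutathione and taurine. The liver is the main site of this cycle, and the MCD diet withholds its starting amino acid together with the source of betaine.

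The pools held 25271585 to 36238734 reads on genes, and a count of 0 would allow up to 0.0828 to 0.119 CPM, counting error only. The members were covered by 367 to 155755 reads per pool, and counting error was of the same order as the spread between pools for Mtr, with 367 to 697 reads, and smaller than that spread for the other 8. Levels are given as CPM after TMM scaling in edgeR, which sets the pools to a common level over most genes. Pool *Mttp-IKO* 3 stood apart: small RNAs took 0.290% of its reads against 1.92 to 3.51% elsewhere, and mRNAs of 300 to 1000 nt took 1.84% of its protein-coding reads against 3.98 to 4.28%. Control 2 and control 1 held striated muscle RNA, with 6 muscle markers summing to 766 and 98.5 CPM and at most 1.22 CPM in the other 4 pools.

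Reads could be confused between related enzymes, and the closest coding stretches of 2 such pairs are therefore shown. Mat1a, the adenosyltransferase subunit of adult hepatocytes, and Mat2a, the subunit of other tissues and of growing liver, shared 73.5% of 1185 aligned coding nucleotides, with no identical run longer than 15 nt. The 60-nt coding stretch in which they were most alike crosses from exon 3 to exon 4 of 9 in both, at chr14:41111121-41114240 (plus strand) for Mat1a and chr6:72436506-72437030 (minus strand) for Mat2a in GRCm38, introns included in these spans. It is printed 5′ to 3′ from the GENCODE M21 transcripts, with the 8 bases that differ in capitals.
Mat1a: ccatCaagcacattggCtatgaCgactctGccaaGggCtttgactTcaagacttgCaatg
Mat2a: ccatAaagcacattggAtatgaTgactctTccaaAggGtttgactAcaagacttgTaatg
Bhmt and Bhmt2, a neighbouring gene whose enzyme methylates homocysteine with S-methylmethionine, shared 75.3% of 1091 aligned coding nucleotides. Their longest identical run was 59 nt. The 60-nt coding stretch in which they were most alike lies in exon 7 of 8 of both. It is at chr13:93620182-93620241 for Bhmt and chr13:93662402-93662461 for Bhmt2 (both on the minus strand). The capital marks the 1 base that differs in that 60-nt stretch.
Bhmt: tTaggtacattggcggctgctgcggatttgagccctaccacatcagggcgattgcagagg
Bhmt2: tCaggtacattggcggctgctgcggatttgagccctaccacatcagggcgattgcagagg
The deposited counts hold only reads with a unique place, so reads inside such an identical run are lost rather than shared. Coding sequence of Ahcy matched 3 other genes at 90% identity or more over at least 100 nt (Gm4737, Gm9826 and Gm5638), which together took 6192 reads against 206881 on Ahcy over the 6 pools. Bhmt matched 3 (Bhmt-ps1, Gm5096 and Gm15622, 12061 reads against 206191), Mat2a matched 2 (576 reads against 37235), and the other 6 members matched none. The antisense gene Gm15622 shares 187 exonic bases with Bhmt, and Particl shares 508 with Mat2a on the opposite strand. Whether counting used strand is not given in the sources used here, so reads in those bases cannot be assigned.

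Promoter sequence (250 bases before to 50 after the RefSeq start, GRCm38.p6) was at hand for 7 of the 9 members. On the TMM scale the pools of 4 members did not overlap between genotypes, where 31.0% of all genes tested did not. The 250 bases before the start are shown for 3 of these, 2 higher (Mat2a and Ahcy) and 1 lower (Cbs) in *Mttp-IKO*. They lie at chr6:72439557-72439806 (Mat2a), chr2:155074498-155074747 (Ahcy) and chr17:31637206-31637455 (Cbs), all on the minus strand, and are printed 5′ to 3′. Capitals mark CCAAT on either strand, which is also read as ATTGG, and TATAAA.
Mat2a: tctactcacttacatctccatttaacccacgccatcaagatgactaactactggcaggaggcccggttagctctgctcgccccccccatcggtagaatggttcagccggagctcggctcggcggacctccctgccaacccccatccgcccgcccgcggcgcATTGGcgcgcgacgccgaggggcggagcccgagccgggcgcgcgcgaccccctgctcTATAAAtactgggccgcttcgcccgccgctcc
Ahcy: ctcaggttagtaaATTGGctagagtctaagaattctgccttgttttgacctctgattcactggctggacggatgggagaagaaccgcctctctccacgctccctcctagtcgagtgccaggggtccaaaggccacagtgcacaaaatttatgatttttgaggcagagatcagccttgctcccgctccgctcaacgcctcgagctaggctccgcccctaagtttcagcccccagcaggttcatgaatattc
Cbs: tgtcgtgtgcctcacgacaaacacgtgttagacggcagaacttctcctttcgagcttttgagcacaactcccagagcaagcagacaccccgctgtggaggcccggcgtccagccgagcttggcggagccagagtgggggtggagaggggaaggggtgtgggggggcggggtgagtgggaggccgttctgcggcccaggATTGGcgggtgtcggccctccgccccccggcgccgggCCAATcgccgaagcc
TATAAA began at -32 in Mat2a and was in none of the other 6 promoters, and 13.6% of 32851 promoters of the same length held it on either strand. CCAAT was in the promoter of all 7 members and in 37.4% of all promoters. It began at -89 in Mat2a, at -237 in Ahcy, and at -52 and -15 in Cbs. The ATF4 element TGATGNAA, which marks genes of the amino acid response, and the NRF2 element TGACNNNGC, which marks antioxidant genes, were in none of the 7, on either strand, against 3.97% and 12.4% of all promoters. The dinucleotide CG was counted 34 times in Mat2a, 24 in Mtr, 22 in Cbs, 19 in Mat2b, 13 in Ahcy, 11 in Gnmt and 8 in Bhmt, where the median promoter holds 7. These matches describe letters only.

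Across the 9 enzymes, none passed an adjusted p of 0.05 in edgeR's quasi-likelihood test, where 4.01% of all genes tested did (0.920% higher and 3.09% lower in *Mttp-IKO*). At an unadjusted p under 0.05 there were 3 (Mat1a, Ahcy and Cbs), where 23.0% of all genes were. DESeq2 called these same 3 genes, with adjusted p-values of 0.0468, 0.0178 and 0.0352, in a test that called 11.5% of all genes, and limma-voom called none of the 9, where it called 2.48%. The pools of 4 members did not overlap between genotypes, Mat1a, Mat2a and Ahcy being higher and Cbs lower in *Mttp-IKO* on the TMM scale (Mat2a was lower when scaled to hepatocyte markers, as given with those markers), where 31.0% of all genes tested did not overlap (14.5% higher and 16.5% lower). The group mean was higher in *Mttp-IKO* for 5 members and lower for 4, and the median log2 fold change of the 9 was 0.06, beside 0.01 over all genes tested. The 9 are steps of 1 pathway in the same pools and are not independent of each other. Because the libraries are of whole liver, fewer cells of a type and less RNA per cell cannot be told apart in any of these values.

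**Figure D1:**
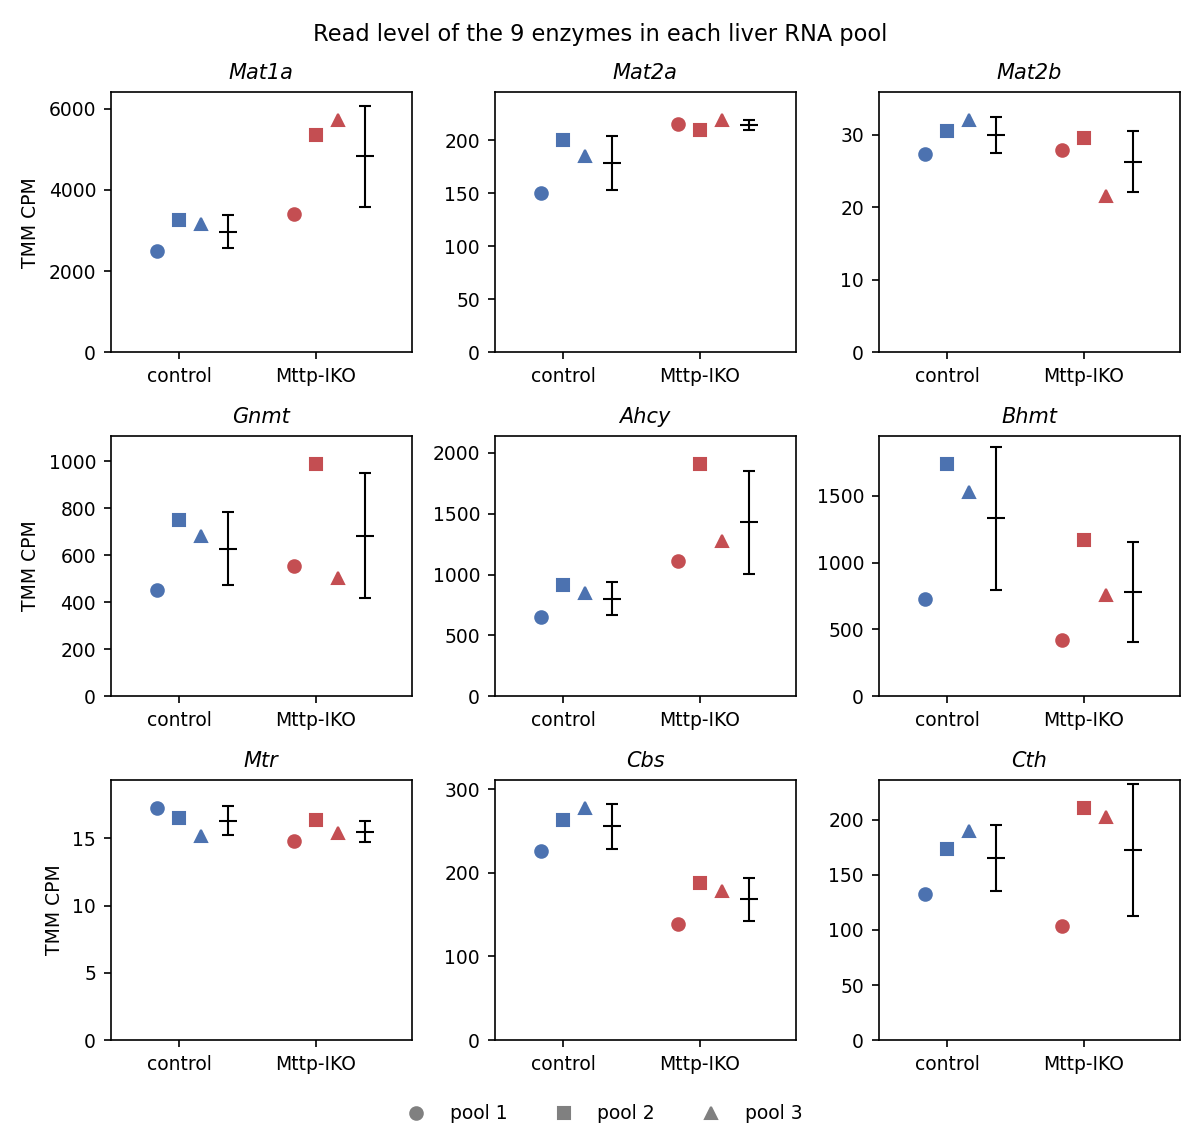
TMM-scaled CPM (vertical axis, from 0 in every panel) of each enzyme in the 3 control and 3 Mttp-IKO pools; the symbol gives the pool number, and the bar beside each group is its mean with SD (n = 3). The pools of Mat1a, Mat2a and Ahcy sit higher and those of Cbs lower in Mttp-IKO with no overlap on this scale (scaled to hepatocyte markers Mat2a is lower, at -0.17 on the log2 scale), and those of the other 5 enzymes overlap.

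Compared per length, as CPM per kilobase of the exonic gene length in the files, the order of the mRNAs was led by Mat1a in both genotypes. In the control pools Mat1a was at 928 ± 127 CPM per kilobase (SD, n = 3), Gnmt at 521 ± 130, Ahcy at 287 ± 48.0, Bhmt at 240 ± 96.6, Cbs at 76.5 ± 8.02, Cth at 73.1 ± 13.2, Mat2a at 63.7 ± 9.14, Mat2b at 5.99 ± 0.485 and Mtr at 3.64 ± 0.237. Of the 8 neighbouring pairs in this order, Ahcy and Bhmt, Cbs and Cth, and Cth and Mat2a overlapped between pools, and the other 5 pairs did not. In the *Mttp-IKO* pools the order was Mat1a (1504 ± 387 CPM per kilobase), Gnmt (566 ± 221), Ahcy (511 ± 151), Bhmt (141 ± 67.6), Mat2a (76.5 ± 1.73), Cth (76.1 ± 26.5), Cbs (50.3 ± 7.83), Mat2b (5.26 ± 0.845) and Mtr (3.46 ± 0.175). There Gnmt overlapped with Ahcy, Bhmt with Mat2a, Mat2a with Cth, and Cth with Cbs. Cbs was the fifth mRNA per length in control liver and the seventh in *Mttp-IKO* liver, with pools that overlapped those of Cth in both. The lengths join all annotated exons of a gene, which lowers the value of a gene whose main transcript uses only part of them.

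**Figure D2:**
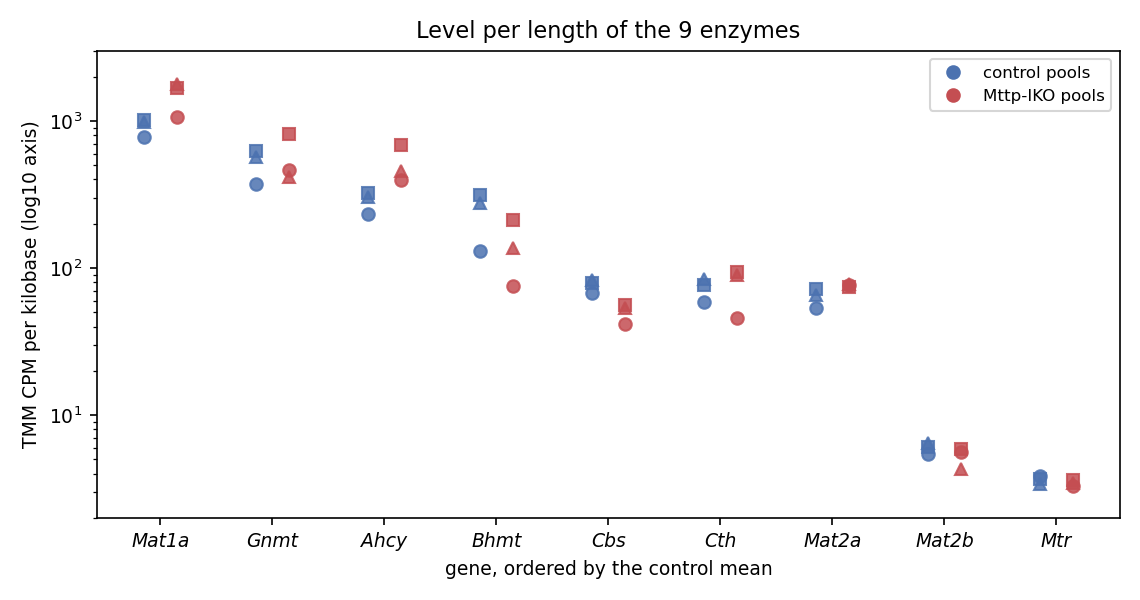
TMM-scaled CPM per kilobase of exonic length on a log10 axis for the 9 enzymes, ordered by the control mean; blue marks are the 3 control pools, red marks the 3 Mttp-IKO pools, with 1 symbol per pool number. Mat1a leads in both genotypes, and Mat2b and Mtr lie below 7 CPM per kilobase in every pool.

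The SAM-making subunits were Mat1a (chr14:41105381-41124412 in GRCm38), Mat2a (chr6:72432799-72439558) and Mat2b (chr11:40679314-40695203), the last a regulatory subunit that binds the Mat2a enzyme. Mat1a read 2509, 3265 and 3156 CPM in the control pools and 3409, 5341 and 5723 CPM in the *Mttp-IKO* pools. Its highest control pool lay just under its lowest *Mttp-IKO* pool, and *Mttp-IKO* 2 and 3 lay well above all others. Its log2 fold change was 0.70 (SE 0.27, a fold of 1.62, 95% interval 1.06 to 2.47, edgeR adjusted p = 0.171). Mat2a read 150, 201 and 185 CPM in the control pools and 215, 209 and 219 CPM in the *Mttp-IKO* pools. On the TMM scale the *Mttp-IKO* pools were tight, with an SD of 2.27% of the mean against 14.3% in the controls. All 3 lay above the controls on that scale. Its log2 fold change was 0.26 (SE 0.17, 95% interval -0.12 to 0.65, edgeR adjusted p = 0.384). Scaled by total counts alone, Mat2a was at only 0.09 (edgeR adjusted p = 0.776), with means of 189 CPM in control and 202 CPM in *Mttp-IKO* pools. Mat2b read 27.3, 30.5 and 32.0 CPM in the control pools and 27.9, 29.5 and 21.5 CPM in the *Mttp-IKO* pools, which overlap, with pool *Mttp-IKO* 3 the lowest of the 6. Its log2 fold change was -0.19 (SE 0.17, 95% interval -0.57 to 0.20, edgeR adjusted p = 0.539).

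Gnmt (chr17:46725664-46729168), which methylates glycine and so disposes of excess SAM, read 452, 749 and 684 CPM in the control pools and 555, 989 and 504 CPM in the *Mttp-IKO* pools. The groups overlapped, and the lowest and the highest of the 6 pools belonged to different genotypes. The log2 fold change was 0.12 (SE 0.31, 95% interval -0.60 to 0.84, edgeR adjusted p = 0.852), so changes of up to 1.79-fold higher or down to 0.660 of the control level lie within its interval. Its sign depended on the scaling and on single pools, at -0.065 with total counts, -0.25 without *Mttp-IKO* 2, -0.09 without control 1 and 0.39 with each library's trend in length and GC content removed. Gnmt has the shortest exonic length of the 9, 1206 nt, and *Mttp-IKO* 3 is the pool poor in short mRNAs, whose part in its low Gnmt level was not tested.

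Ahcy (chr2:155059310-155074497), the only enzyme that clears S-adenosylhomocysteine, a product that inhibits methyltransferases, had the largest log2 fold change of the 9. It read 653, 912 and 847 CPM in the control pools and 1110.3, 1912 and 1274 CPM in the *Mttp-IKO* pools. Every *Mttp-IKO* pool lay above every control pool, and *Mttp-IKO* 2 was the highest of the 6. The log2 fold change was 0.83 (SE 0.26, a fold of 1.78, 95% interval 1.18 to 2.70, edgeR adjusted p = 0.113). Leaving out each pool in turn gave 0.57 to 0.99, the lowest without *Mttp-IKO* 2. Of its near-identical copies, Gm4737 read 10.3 to 12.4 CPM in control and 14.1 to 23.8 CPM in *Mttp-IKO* pools (0.71 on the log2 scale, edgeR adjusted p = 0.106), and Gm9826 12.1 to 16.1 CPM and 16.8 to 24.3 CPM (0.69, adjusted p = 0.104). Whether those reads came from Ahcy itself was not tested.

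Homocysteine is remethylated by Bhmt (chr13:93616891-93637961), which takes the methyl group from betaine, and Mtr (chr13:12186542-12258113), which takes it from methylfolate. Bhmt varied the most between pools of the same genotype, with an SD of 40.2% of the control mean and 48.0% of the *Mttp-IKO* mean. It read 726, 1740.0 and 1532 CPM in the control pools and 419, 1167 and 758 CPM in the *Mttp-IKO* pools. Control 1 was the only control pool within the *Mttp-IKO* range, and the groups did not overlap without it. The log2 fold change was -0.77 (SE 0.43, 95% interval -1.76 to 0.22, edgeR adjusted p = 0.326), and -1.09 without control 1 (adjusted p = 0.289). The antisense Gm15622 had a log2 fold change of 0.82 (adjusted p = 0.312), of the other sign, while the copies Gm5096 and Bhmt-ps1 were at -1.31 and -1.38 (adjusted p = 0.115 and 0.102). Mtr read 17.3, 16.5 and 15.2 CPM in the control pools and 14.8, 16.3 and 15.4 CPM in the *Mttp-IKO* pools. It was the most even member over the control pools, with SDs of 6.50% and 5.06% of the group means. Its log2 fold change was -0.07 (SE 0.15, 95% interval -0.41 to 0.26, edgeR adjusted p = 0.801), so a difference beyond 1.20-fold higher or 0.751 of control lies outside the interval.

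The transsulfuration enzymes were Cbs (chr17:31612623-31637199), which joins homocysteine to serine and commits it to cysteine, and Cth (chr3:157894248-157925077), which cleaves the cystathionine so made. Cbs read 226, 263 and 278 CPM in the control pools and 138, 188 and 179 CPM in the *Mttp-IKO* pools. All 3 *Mttp-IKO* pools lay below the lowest control pool. The log2 fold change was -0.60 (SE 0.18, a fold of 0.658, 95% interval 0.490 to 0.883), and its edgeR adjusted p of 0.107 was the smallest of the 9. Scaled by total counts alone, which shifts the median of all genes by -0.18, Cbs was at -0.79 and passed (adjusted p = 0.0385). That scaling called 1019 of the 17287 genes tested. Cth read 132, 173 and 190 CPM in the control pools and 103, 211 and 202 CPM in the *Mttp-IKO* pools. *Mttp-IKO* 1 was the lowest of all 6 pools and *Mttp-IKO* 2 the highest. Its log2 fold change of 0.06 (SE 0.29, 95% interval -0.60 to 0.72, edgeR adjusted p = 0.925) turned to -0.13 with total counts, to -0.11 without *Mttp-IKO* 2, to -0.07 without *Mttp-IKO* 3 and to -0.10 without control 1.

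**Figure D3:**
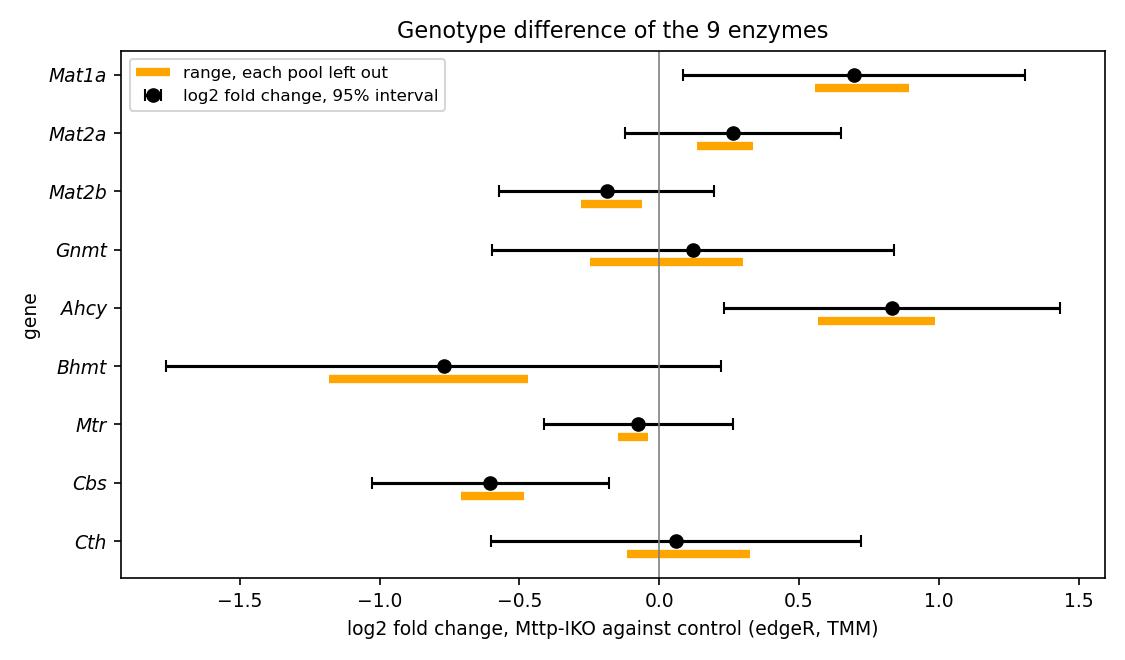
Log2 fold change of each enzyme, Mttp-IKO against control, from edgeR's fit of 3 and 3 pools (points, with 95% intervals); orange bars span the values found when single pools were left out. The intervals of Mat1a, Ahcy and Cbs lie to 1 side of 0 and the other 6 include 0, and the orange bars of Gnmt and Cth cross 0.

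The intervals of Mat1a, Ahcy and Cbs excluded 0 before adjustment over all genes, and those of the other 6 did not. Leaving out 1 pool in turn gave log2 fold changes of 0.56 to 0.89 for Mat1a, 0.13 to 0.34 for Mat2a and -0.71 to -0.48 for Cbs. Without both control 2 and *Mttp-IKO* 3 the values were 0.62 for Mat1a, 0.33 for Mat2a, 1.001 for Ahcy and -0.64 for Cbs, and none of the 9 passed the test (adjusted p = 0.0612 to 0.942). Within a genotype the members often moved together by pool: control 1 was the lowest control pool for 8 of the 9, the exception being Mtr, and *Mttp-IKO* 1 was the lowest *Mttp-IKO* pool for 6 of the 9, while *Mttp-IKO* 2 was the highest for 7.

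Ratios between 2 mRNAs of a pool do not depend on how that pool is scaled. The Mat2a to Mat1a ratio per kilobase was 0.0686, 0.0703 and 0.0671 in the control pools and 0.0722, 0.0449 and 0.0438 in the *Mttp-IKO* pools. The controls agreed closely, *Mttp-IKO* 1 lay slightly above them, and *Mttp-IKO* 2 and 3 lay clearly below. The mean log2 ratio differed by -0.40 (exact permutation test, two-sided, p = 0.4, where 0.1 is the smallest p that 3 against 3 can give). Mat1a mRNA exceeded Mat2a mRNA per length by 13.8 to 22.8 times in every pool. The Ahcy to Cbs ratio, chosen after its values were seen and therefore given with no test, was 3.44, 4.13 and 3.63 in the control pools and 9.56, 12.2 and 8.50 in the *Mttp-IKO* pools. The *Mttp-IKO* ratios were all above the controls, by 2.67 times on average, since the numerator was higher and the denominator lower.

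**Figure D4:**
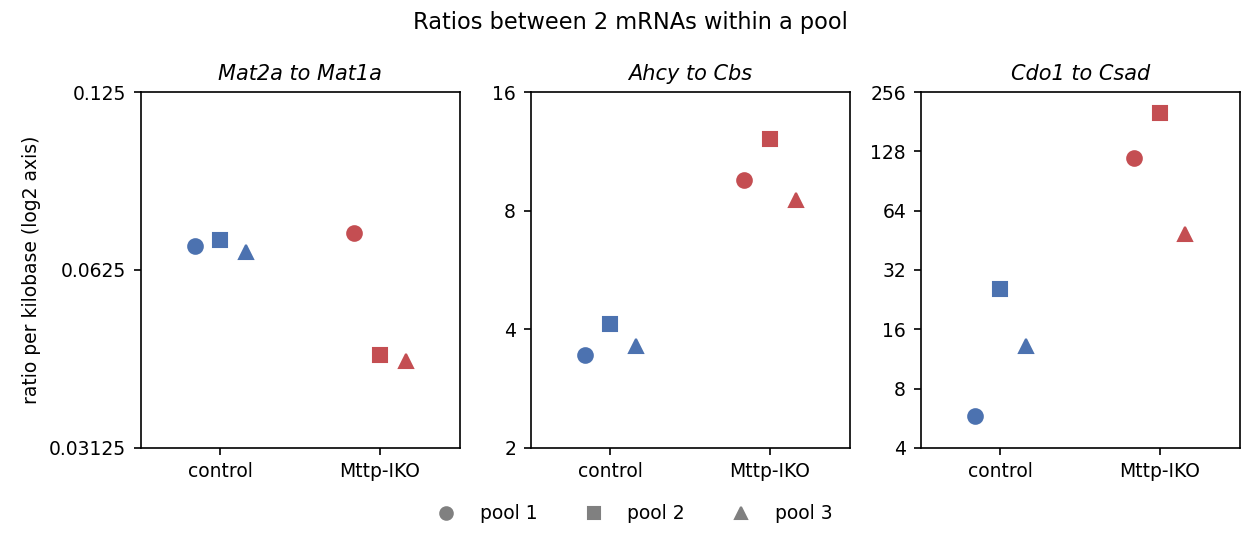
Ratio per kilobase between 2 mRNAs in each pool (log2 axis, a scale of its own in each panel); symbols give the pool number. Mat2a to Mat1a overlaps between genotypes, while Ahcy to Cbs (3.44 to 4.13 in control, 8.50 to 12.2 in Mttp-IKO pools) and Cdo1 to Csad, both chosen after their values were seen, do not.

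Over the 6 pools the members whose log2 levels were most alike were Mat1a and Ahcy (Pearson r = 0.89, Spearman rho = 0.94, n = 6 pools), followed by Bhmt and Cbs (r = 0.86, rho = 0.77). Mat2a was also near Ahcy (r = 0.77, rho = 0.83) and Mat1a (r = 0.77, rho = 0.94). The most opposed pair was Mat2a and Mtr by Pearson's measure (r = -0.66, rho = -0.54) and Mat2a and Cbs by Spearman's (r = -0.52, rho = -0.77). These are descriptions over pools that fall into 2 genotypes and share libraries and scaling, and they include the difference between the genotypes.

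Beyond the 9 enzymes, 73 genes of adjoining pathways were read in 8 lists, and 72 were tested, Gadl1 being listed at 0 reads in 4 pools and below the floor in the other 2. The group mean was higher in *Mttp-IKO* for 37 and lower for 35, with a median log2 fold change of 0.01. By edgeR 2 passed (2.78%, where 4.01% of all genes did), Slc19a1 being higher and Csad lower, and 22 did not overlap between genotypes (30.6%, where 31.0% of all genes did not). Both shares are near those of all genes.

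Csad, cysteine sulfinic acid decarboxylase, which commits cysteine to taurine, fell. It read 123, 46.5 and 73.5 CPM in the control pools and 14.0, 11.6 and 26.9 CPM in the *Mttp-IKO* pools. All *Mttp-IKO* pools lay below all controls, and control 1 was the highest. The log2 fold change was -2.21 (SE 0.43, edgeR adjusted p = 0.0350), but the call was lost without control 1 (adjusted p = 0.109), control 3 (0.105), *Mttp-IKO* 1 (0.0921) or *Mttp-IKO* 2 (0.137), with values of -2.66 to -1.80 over the pools left out. It was also lost, narrowly, with the trend in length and GC content removed (adjusted p = 0.0504). Csad shares 278 exonic bases with Zfp740 on the opposite strand, whose own level of 27.5 to 37.4 CPM had a log2 fold change of 0.06 (adjusted p = 0.863). Cdo1, the dioxygenase that makes the substrate of Csad, lay on the other side: it read 483, 806 and 655 CPM in the control pools and 1125 CPM, 1569 CPM and 885 CPM in the *Mttp-IKO* pools, without overlap (log2 fold change 0.88, SE 0.28, edgeR adjusted p = 0.119). The Cdo1 to Csad ratio per kilobase, also chosen after its values were seen, was 5.82, 25.7 and 13.2 in the control pools and 119, 200 and 48.7 in the *Mttp-IKO* pools, which lay above all controls. In the cysteine, taurine and sulfide list 3 of 8 means were higher and 5 lower (median log2 fold change -0.26), 1 passed (12.5%, where 4.01% of all genes did), and 5 did not overlap (62.5%, where 31.0% of all genes did not). Beside Csad and Cdo1 these were Tst, Ethe1 and Sqor, at -0.56, -0.81 and -0.18, none of which passed (adjusted p = 0.242, 0.104 and 0.470). Mpst, a sulfur transferase as Tst is, was at 0.10 with overlapping pools (adjusted p = 0.815).

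Slc19a1, the reduced folate carrier, rose. It read 14.2, 19.6 and 17.2 CPM in the control pools and 38.3, 49.6 and 27.4 CPM in the *Mttp-IKO* pools. No pools overlapped, and *Mttp-IKO* 3 lay closest to the controls. The log2 fold change was 1.18 (SE 0.24, edgeR adjusted p = 0.0401), and the call was lost in limma-voom (adjusted p = 0.0521) and without control 1 (0.176), control 2 (0.0541), control 3 (0.163), *Mttp-IKO* 1 (0.0854) or *Mttp-IKO* 2 (0.134), with values of 0.95 to 1.37 over the pools left out. It was also lost when scaled to the hepatocyte markers, at 0.73 (adjusted p = 0.0945). Of the 15 folate genes 9 means were higher and 6 lower (median 0.08), 1 passed (6.67%, where 4.01% of all genes did), and 7 did not overlap (46.7%, where 31.0% of all genes did not). Beside Slc19a1, those higher were Aldh1l1 and Ftcd, which interconvert folate forms in hepatocytes, and Fpgs, which adds glutamates that keep folate in the cell. Aldh1l1 was at 0.73 (adjusted p = 0.159), Ftcd at 0.81 (adjusted p = 0.104) and Fpgs at 0.43 (adjusted p = 0.212). Those lower were Mthfd2l at -0.66, Tyms, the thymidylate synthase of dividing cells, at -0.39, and Ggh, which removes the glutamates, at -0.37 (adjusted p = 0.245, 0.313 and 0.248).

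Choline is oxidised to betaine and on to glycine, and of the 8 genes of that route and of glycine cleavage 2 means were higher and 6 lower (median -0.22), with none past the test and 3 free of overlap (37.5%, where 31.0% of all genes were). The 2 genes with the smallest adjusted p are subunits of the same glycine cleavage complex and lay on opposite sides. Amt, its aminomethyltransferase, read 23.2, 34.2 and 30.6 CPM in control and 17.6, 18.3 and 12.2 CPM in *Mttp-IKO* pools (-0.87 on the log2 scale, SE 0.22, adjusted p = 0.0676). Gldc, its decarboxylase, read 112, 111 and 95.2 CPM in control and 205, 221 and 138 CPM in *Mttp-IKO* pools (0.82, SE 0.21, adjusted p = 0.0712). The third gene without overlap was Chdh, the choline dehydrogenase that supplies the betaine used by Bhmt, at 233, 245 and 252 CPM in control and 138, 147 and 232 CPM in *Mttp-IKO* pools (-0.50, SE 0.22, adjusted p = 0.232). Its pool *Mttp-IKO* 3 lay just under control 1.

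In the other 5 lists none passed, and the values in parentheses are log2 fold changes and medians of these. Over all genes tested 4.01% passed and 31.0% were free of overlap. In the order given here, the shares of the 5 lists free of overlap were 25.0%, 25.0%, 0%, 8.33% and 30.0%. Among 8 SAM-dependent methyltransferases 4 means were higher and 4 lower (median 0.01, 2 free of overlap, among them As3mt), the smallest adjusted p-values being those of Gamt, which makes creatine (-0.61, adjusted p = 0.232), and As3mt, which methylates arsenic (0.32, adjusted p = 0.346). Pemt, which makes phosphatidylcholine from SAM without dietary choline and was picked out after its values were seen, read 249, 324 and 282 CPM in control and 383, 453 and 200 CPM in *Mttp-IKO* pools (0.28, SE 0.30, adjusted p = 0.615). The controls lay between *Mttp-IKO* 3 and the other *Mttp-IKO* pools. Among the 4 genes of S-adenosylhomocysteine and adenosine 3 means were higher and 1 lower (median 0.15, Ahcyl1 alone free of overlap), led by Adk, the adenosine kinase (0.32, adjusted p = 0.356), and Ahcyl1, an Ahcy relative (0.14, adjusted p = 0.594). All 7 remethylation genes had higher means (median 0.16) with every group overlapping, the first being Mmachc and Lmbrd1, which handle cobalamin (0.42 and 0.36, adjusted p = 0.256 and 0.349). Bhmt2, the close relative of Bhmt shown above, was at 0.16 (SE 0.28, adjusted p = 0.777) with 122, 183 and 157 CPM in control and 163, 236 and 115 CPM in *Mttp-IKO* pools. Among 12 genes of methionine salvage and polyamines 4 means were higher and 8 lower (median -0.18), with Sms, the spermine synthase, free of overlap (-0.73, adjusted p = 0.169) and Sat1, which acetylates polyamines, next (-0.46, adjusted p = 0.207). Of 10 genes of methionine uptake, SAM sensing and vitamin B6, the cofactor of Cbs and Cth, 5 means were higher and 5 lower (median -0.0024), with 3 free of overlap, among them the amino acid carriers Slc43a1, which was higher (0.79, adjusted p = 0.120), and Slc7a8, which was lower (-0.90, adjusted p = 0.0813).

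**Figure D5:**
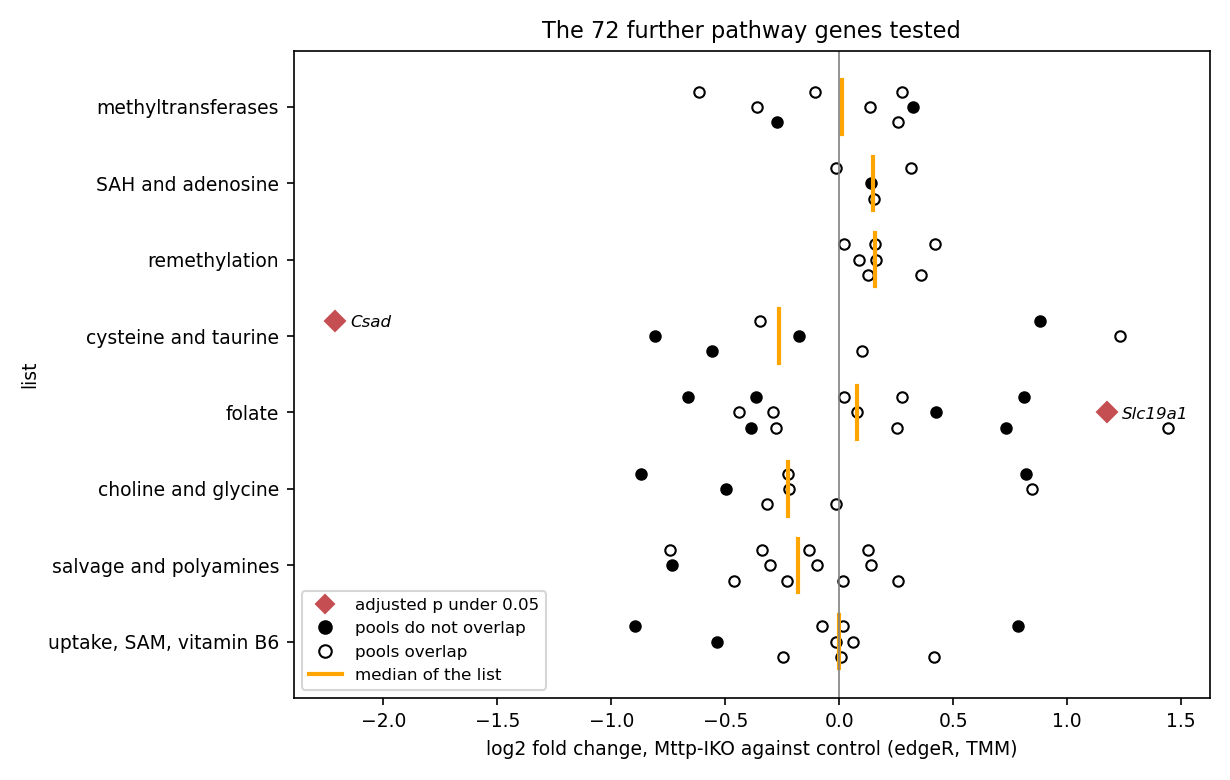
Log2 fold change, Mttp-IKO against control, of the 72 further genes tested, 1 row per list; red diamonds passed an adjusted p of 0.05, filled points did not overlap between genotypes, open points did, and orange bars are the list medians. Csad (-2.21) and Slc19a1 (1.18) are the only genes past the threshold, and the medians lie between -0.26 and 0.16.

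Markers of several cell types also differed between the groups. Over all genes tested 4.01% passed (0.920% higher and 3.09% lower). The pools of 31.0% did not overlap between genotypes (14.5% higher and 16.5% lower). Of 8 hepatocyte markers 7 means were higher in *Mttp-IKO* (median log2 fold change 0.73), none passed, 3 were higher and 1 lower without overlap, and their summed level was 51810.3 to 84901 CPM in control and 101292 to 156228 CPM in *Mttp-IKO* pools. Control 1, the lowest control pool for 8 of the 9 enzymes, also had the lowest hepatocyte sum. In *Mttp-IKO* the 2 orders differed. Pool *Mttp-IKO* 1 was the lowest for 6 of the 9 enzymes, with a hepatocyte sum of 117693 CPM. The lowest sum there was that of *Mttp-IKO* 3, at 101292 CPM. Alb alone gave 40131 CPM of the sum in control 1. Scaled to the hepatocyte list instead of to all genes, which shifts the median of all genes by -0.45 and was chosen after the data were seen, Mat1a was at 0.23, Ahcy at 0.37, Mat2a at -0.17, Gnmt at -0.34 and Cth at -0.42, and Cbs (-1.07, adjusted p = 0.0167) and Bhmt (-1.23, adjusted p = 0.0343) passed. That scaling called 1756 of the 17287 genes tested. Cbs, Bhmt, Mat2b and Mtr were lower, and Mat1a and Ahcy higher, under every scaling tried. The sign of Mat2a, Gnmt and Cth depended on the scaling. All 7 stellate cell markers were lower, 4 of them past the test, with sums of 842 to 1493 CPM in control and 452 to 507 CPM in *Mttp-IKO* pools. Des, among these 7 and not past the test, read 68.1 CPM in control 2, the pool with the most striated muscle RNA. It read 19.1 CPM in control 1 and 12.5 CPM in control 3. The part of muscle RNA in the Des level was not tested. All 6 markers of recruited macrophages were lower as well, 3 past the test, with sums of 266 to 828 CPM and 112 to 182 CPM. Of the markers of hepatocytes near the central vein 2 of 6 means were higher (median -0.17), and of those near the portal vein 6 of 7 (median 0.32), none past the test. No marker of these 5 lists was at 0 in any pool. All 6 markers of dividing cells were lower without overlap (median -1.76), none past the test, with sums of 48.5 to 80.4 CPM in control and 20.5 to 45.1 CPM in *Mttp-IKO* pools and Ccnb1 at 0 in *Mttp-IKO* 3. Kupffer cell markers did not move together: 3 of 5 means were higher (median 0.12), 1 of them past the test, with sums of 288 to 426 CPM and 222 to 552 CPM. Endothelial markers, with 3 of 5 means higher (median 0.02) and none past the test, summed to 292 to 350 CPM and 304 to 355 CPM. Of the cholangiocyte markers 1 of 5 means was higher (median -0.22), and the 5 tested markers of B and T cells and the 4 of erythroid cells all had lower means (medians -1.27 and -0.31), none past the test. The part of cell makeup in the differences of the 9 enzymes was not tested beyond this scaling.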

How the data were processed

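Liver RNA pools of the MCD diet experiment were analysed, 3 per genotype, with groups and replicate numbers taken from the labels, and the other experiments of the study were not analysed here. The authors removed ribosomal RNA, aligned reads with STAR 2.5.1a to the Ensembl release of GRCm38, and deposited for each gene the count of uniquely aligned, unambiguous reads from featureCounts 1.4.6-p5. The authors also gave CPM and RPKM, which follow from those counts in all 6 files and were not tested. The table of all pools holds the same counts with gene symbols and 276 repeated lines, which were dropped. Ribosomal depletion keeps RNAs without a poly(A) tail, and dropping reads with several places lowers genes that have near-identical copies.

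Genes were filtered with filterByExpr (minimum count 10, minimum total 15), scaled by TMM (factors 0.898 to 1.11) and compared with edgeR 4.0.16 in R 4.3.3, by glmQLFTest after glmQLFit, calling genes at a Benjamini-Hochberg adjusted p under 0.05 over the 17287 tested. Every adjusted p in the text is from that test unless DESeq2 1.42.0 or limma-voom (limma 3.58.1) is named. The test was also run on simulated counts with planted changes, with an outcome not reported here. The 9 members, the 8 pathway lists and the 13 marker lists were chosen with earlier results of these data known. In each pathway list the genes past the threshold are named, or else the 2 with the smallest adjusted p, and others where the text says so or where a count of genes without overlap is listed, and single values of some list genes are not reported here. The alternatives were DESeq2's size factors and test, limma-voom, upper quartile and total-count scaling, scaling to the hepatocyte markers, other filters, protein-coding genes only, a robust fit, a replicate block, a loess correction per pool (span 0.3) for gene length and GC content (known for 97.3% of genes), and leaving out pools. Nothing in the labels says that equal numbers mark shared mice. To look for a library deposited more than 1 time, counts were compared between pools, and the chi-square per degree of freedom was 37.1 or more for every pair. The TATAAA and CCAAT motifs were added after the data were seen. Promoters are those of RefSeq (GRCm38.p6), and transcripts and overlaps are those of GENCODE M21, whose gene spans equal those of the files for 5 of the 9 members. Python 3.11.15 with matplotlib 3.10.9 drew the figures.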

Additional observations from a re-analysis of the deposited data

How the results depend on the processing

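Under the alternatives other than the hepatocyte marker scaling Mat2b, Bhmt and Mtr stayed lower without passing the test, while DESeq2 called Mat1a, Ahcy and Cbs, so that 3 of the 9 passed, with 5 further pathway genes higher, 5 lower and 1995 of all genes. Limma-voom called none of the 9, 0 further genes higher, and 428 genes. Total counts called 1 of the 9 (Cbs) and 3 further genes lower, and put Gnmt at -0.065 and Cth at -0.13. Scaling to the hepatocyte markers, chosen after the data were seen, called 2 of the 9 (Cbs and Bhmt), 0 further genes higher and 8 lower, and 1756 genes, and put Mat2a at -0.17, Gnmt at -0.34 and Cth at -0.42. With the length and GC trend removed 3 further genes were higher and 0 lower, and without a filter beyond 1 read 2 were lower. Leaving out pools moved Gnmt over -0.25 to 0.43 and Cth over -0.11 to 0.32, the further genes called over 0 to 6 higher and 0 to 5 lower, and the genes called over 0 to 2146. These counts were 55 without *Mttp-IKO* 1, 0 without *Mttp-IKO* 2 (3221 at an unadjusted p under 0.05), 864 without *Mttp-IKO* 3, 24 without control 1, 892 without control 2, 21 without control 3, and 2146 without control 2 and *Mttp-IKO* 3. None of the 9 passed in any of these fits, and the cause of each difference was not tested.

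With the replicate number as a block 592 genes passed and 0 of the 9, Mat1a being at 0.67, Ahcy at 0.81 and Cbs at -0.61. The deviations of equal numbers correlated at 0.14, 0.11 and 0.01, so the numbers were not taken as pairs. Depth limits Mtr the most, the least covered member, with 367 reads in its shallowest pool.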
